A study of Mus musculus with 6 samples.

Results

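Cytosolic ribosomal protein genes encode the proteins that fold with ribosomal RNA into the small and the large subunit of the ribosome. They were taken here by symbol (Rps and Rpl genes with a number, Rplp0 to Rplp2 and Rpsa, without pseudogene symbols ending in -ps), which gave 85 of the 35976 symbols in a table of liver RNA counts. Of these, 33 belong to the small subunit and 52 to the large subunit. The genes were chosen by symbol, but the set itself was selected on the log2 fold changes between the genotypes, which were known when it was put forward. Its fold changes, counts of calls and medians are therefore a description, with no test, and they support nothing.

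The RNA came from livers of male mice whose diet carries the label HFD (taken to mean high-fat diet), with 3 libraries of genotype IRE1fl and 3 of genotype IRE1PKO, taken 4 hours after food was returned following a 16-hour fast. IRE1, the product of Ern1, senses unfolded proteins in the endoplasmic reticulum. The suffix fl commonly marks a gene flanked by recombination sites. The labels spell out neither PKO nor the Cre driver, the strain or the age, and the series title speaks of communication between pituitary and liver. If the deletion lies outside the liver, no liver transcript checks the genotype labels. Nothing in the labels states that each library is a separate animal, so the errors given measure the spread between libraries, which may be technical.

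Libraries held 35776219 to 39277435 counts each. Ern1 had 61.2, 49.3 and 60.8 CPM in IRE1fl and 45.7, 36.6 and 44.2 in IRE1PKO, where CPM is the usual depth-normalised count, on totals scaled with TMM (trimmed mean of M-values). The edgeR adjusted p of 0.0357 for the log2 fold change of Ern1, -0.44 (SE 0.11), rose above 0.05 with library totals (0.0660), with limma-voom (0.0512) and on leaving out any library other than IRE1fl 2. Hepatocyte markers summed to 83309 to 97542 CPM in IRE1fl and 76530 to 95023 CPM in IRE1PKO. Alb made up most of these sums, with means of 63170 and 64302 CPM. Of the 6 markers 4 were below 0. Among them, Cps1 had means of 3983 and 1787 CPM (log2 fold change -1.16, SE 0.15, edgeR adjusted p = 0.00142). In bulk RNA, fewer cells of a type and less RNA per cell cannot be told apart.

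Making ribosomes is among the costliest tasks of a growing cell, and the liver adjusts it to feeding and fasting. Most ribosomal protein mRNAs begin with a 5′ terminal oligopyrimidine (TOP) tract, a C at the cap followed by a run of C and T. The kinase mTORC1, active when nutrients and insulin are plentiful, acts through the RNA-binding protein LARP1 on these tracts. This control works mainly on translation and on the stability of the mRNA, so that RNA levels alone show only part of it. RNA levels are all that was measured here.

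The starts of several members are shown because the tract is a feature that the symbol rule did not use. Most of the lines below hold a tract, but only 14 of 64 members have one at an annotated start. RefSeq (GRCm38.p6, the same build as mm10) gave 76 starts for 64 of the 85 members. Each line holds 30 bases of the gene's strand, 5′ to 3′, of which 15 lie before the annotated start. Capitals mark a tract that begins at the start with C and goes on with 4 or more pyrimidines.
Rps6 (chr4:86857353-86857382, minus strand): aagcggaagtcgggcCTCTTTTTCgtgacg
Rps18 (chr17:33955651-33955680, minus strand): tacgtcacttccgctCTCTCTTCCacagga
Rps10 (chr17:27635230-27635259, minus strand): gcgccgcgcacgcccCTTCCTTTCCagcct
Rps27 (chr3:90213634-90213663, minus strand): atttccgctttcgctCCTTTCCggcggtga
Rpl15 (chr14:18270972-18271001, minus strand): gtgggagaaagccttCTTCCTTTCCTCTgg
Rpl28 (chr7:4792950-4792979, plus strand): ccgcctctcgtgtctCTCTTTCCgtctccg
Rpl35a, the second of its starts (chr16:33056467-33056496, plus strand): gcggggcttgccttcCTCTTTCCgccatct
Rplp2 (chr7:141447636-141447665, plus strand): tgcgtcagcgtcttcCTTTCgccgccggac
Rps2, with no tract at its start (chr17:24720048-24720077, plus strand): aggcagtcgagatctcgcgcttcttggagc
Rpl10, with no tract at its start (chrX:74270801-74270830, plus strand): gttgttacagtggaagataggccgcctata
Rps27l, the first of its starts (chr9:66946071-66946100, plus strand): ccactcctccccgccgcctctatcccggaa

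Such a tract stood at an annotated start of 14 of the 64 members (21.9%), against 3.01% of all 27025 genes in the RefSeq table. With up to 5 bases of slack on either side the shares were 46.9% and 21.2%. An annotated start can lie several bases from the true one, so these shares describe the annotation. The letters CCGGAAG, a core bound by ETS factors such as GABPA, lay on either strand in the 300 bases around a start (250 before and 50 after) in 40.6% of members and 9.93% of all genes. AAGATGGC, a core bound by YY1, was in 9.38% of members and 3.19% of all genes. TATAAA was in 12.5% and 15.7%. CCGGAAG and AAGATGGC can overlap in the letters AAG.

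Members also host small nucleolar RNAs, guides for the modification of ribosomal RNA that are cut from introns. By RefSeq coordinates, 30 of the 85 members (35.3%) contained at least 1 annotated snoRNA gene on either strand, and 59 such genes lay inside members. Of 12727 other tested protein-coding genes, 1.99% contained one. The members are scattered over 19 chromosomes, with 14 of them on chromosome 7.

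In the livers, the members together took 1.21%, 1.32% and 1.21% of all counts in the IRE1fl libraries and 1.26%, 1.22% and 1.07% in the IRE1PKO libraries. The groups overlapped, at 1.24% ± 0.061 and 1.18% ± 0.097 (SD, n = 3 each). IRE1PKO 3 had the lowest share and IRE1fl 2 the highest. Without IRE1PKO 3 the IRE1PKO mean was 1.24%. Small subunit counts stood to large subunit counts in a ratio of 0.691 ± 0.0080 in IRE1fl and 0.690 ± 0.0073 in IRE1PKO.

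Of the 85 members, 82 passed the filter on low counts. Their fold changes between the genotypes were small and mostly to the same side. The median log2 fold change, IRE1PKO over IRE1fl, was -0.14, against -0.00 over all 14954 tested genes. Values below 0 were found for 76 of 82 members and 50.2% of all tested genes. Values within 0.2 of 0 were found for 62 of 82 members (75.6%) and 48.2% of all tested genes. The quartiles of the members were -0.19 and -0.09. Medians were -0.15 for the 33 small subunit members and -0.12 for the 49 tested large subunit members.

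**Figure D1:**
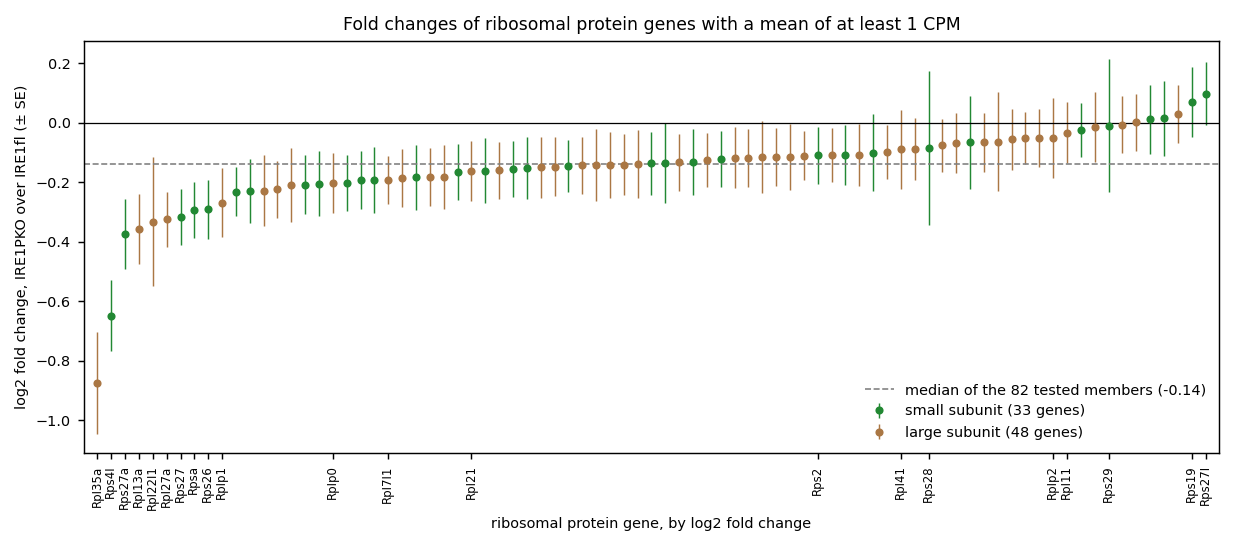
Log2 fold change (IRE1PKO over IRE1fl, vertical axis) of each ribosomal protein gene with a mean of at least 1 CPM, ordered by value, with bars of 1 SE and colours for the subunits; a selection of genes is named on the axis. Rpl35a at -0.87 and Rps4l at -0.65 stand below the rest, which run from -0.37 to 0.10 around a median of -0.14.

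The median of the members depended on the scaling and on single libraries, most on IRE1PKO 3. With library totals as the only scaling, the median of the members was -0.07 while that of all tested genes was 0.07, and 65 of 82 members were below 0. Without IRE1PKO 3 the median of the members was -0.06, and 58 of 82 were below 0. The distance between the median of the members and that of all tested genes was -0.14 with TMM scaling and -0.14 with library totals. It was -0.05 without IRE1PKO 3. With any other library left out it ran from -0.20 (without IRE1PKO 1, 81 of 82 members below 0) to -0.10 (without IRE1fl 2). Over all tested genes, 849 were called higher and 577 lower with TMM, and 1148 and 415 with library totals.

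With p-values of the edgeR quasi-likelihood fit adjusted over all genes (Benjamini-Hochberg, 0.05), 2 members, Rpl35a and Rps4l, were called lower in IRE1PKO and none higher. Over all tested genes 3.86% were called lower, 5.68% higher and 9.54% in either direction. An unadjusted p under 0.05 was found for 12 of 82 members and 25.02% of all tested genes. None was called higher by DESeq2 or limma-voom, or in any other setting that was run. The groups did not overlap for 18 members, all lower in IRE1PKO, beside 15.0% of all tested genes lower and 16.0% higher. The 95% interval of the fold change lay within 1.5-fold in both directions for 75 of the 82 tested members. The exceptions were Rpl35a, Rps4l, Rpl13a, Rps27a, Rpl22l1, Rps28 and Rpl3l.

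Rpl35a (chromosome 16, 33056453 to 33060189) encodes a large subunit protein that is among those mutated in Diamond-Blackfan anaemia. The 3 IRE1fl libraries gave 70.04, 88.2 and 66.8 CPM, and the 3 of IRE1PKO gave 47.4, 44.4 and 31.0 CPM. Every IRE1PKO library was below every IRE1fl library, and the log2 fold change was -0.87 (SE 0.17), the lowest among members. It was called in every alternative, with values from -0.99 to -0.71. The annotated Iqcg gene overlaps it, had a mean of 1.99 CPM and a log2 fold change of 0.87 (SE 0.28, edgeR adjusted p = 0.0747), so it was not called.

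Rps4l (chromosome 6, 148354656 to 148355596) is an autosomal copy of the X-linked Rps4x, which encodes a small subunit protein. It had 21.3, 20.8 and 17.3 CPM in IRE1fl and 12.4, 13.7 and 11.8 CPM in IRE1PKO. The groups did not overlap, with a log2 fold change of -0.65 (SE 0.12) that ran from -0.74 to -0.58 over the alternatives and was called in each. Rps4x had 187, 195 and 197 CPM in IRE1fl and 181, 178 and 165 CPM in IRE1PKO, a log2 fold change of -0.15 (SE 0.09). Rps4l lies within Tmtc1, which had a mean of 1.52 CPM and a log2 fold change of 0.61 (SE 0.28). Copies with similar sequence can share reads, and how the counting split them is not stated.

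**Figure D2:**
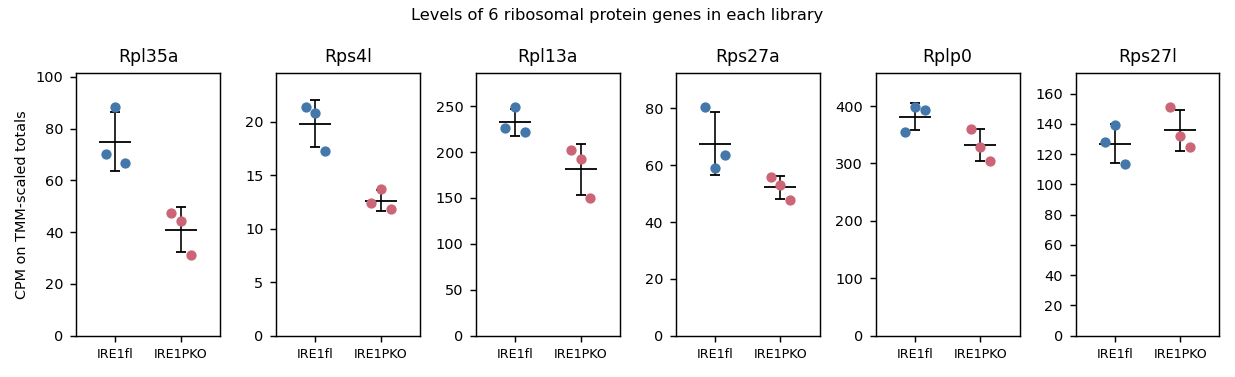
CPM on TMM-scaled totals (vertical axis, from 0, a scale of its own for each gene) of 6 ribosomal protein genes in each library, with the mean and SD of each group of 3. Rpl35a, Rps4l, Rpl13a and Rps27a do not overlap between the groups, while Rplp0 and Rps27l do.

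Next to these in the small subunit came Rps27a, Rps27, Rpsa and Rps26, none of them called in the edgeR fit above. At the same threshold, Rps27 and Rps27a were called without the filter on low counts, and these and Rpsa by the DESeq2 Wald test. Rps27a, made as a fusion with ubiquitin, had 80.3, 59.1 and 63.5 CPM in IRE1fl and 55.9, 53.1 and 47.7 CPM in IRE1PKO. Its coordinates overlap those of Clhc1, which had a mean of 0.00869 CPM. IRE1fl 1 stood above the other IRE1fl libraries, and the log2 fold change was -0.37 (SE 0.12). Rpsa, a protein of the small subunit also known as a laminin receptor, averaged 334 ± 18.3 CPM in IRE1fl against 273 ± 15.8 CPM in IRE1PKO (SD, n = 3 each), with -0.29 (SE 0.09) as the log2 fold change. Rps27 and Rps26, the latter near the site where mRNA leaves the ribosome, had log2 fold changes of -0.32 (SE 0.09) and -0.29 (SE 0.10). For all 4 genes every IRE1PKO library was below every IRE1fl library.

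Among large subunit members with a mean of at least 1 CPM, the lowest after Rpl35a were Rpl13a, Rpl22l1, Rpl27a and Rplp1. Rpl13a had 226, 249 and 222 CPM in IRE1fl and 202, 193 and 149.6 CPM in IRE1PKO, a log2 fold change of -0.36 (SE 0.12), and its groups did not overlap. It hosts the snoRNA genes Snord32a, Snord33, Snord34 and Snord35a, some of them known from work on cell death caused by excess fatty acids. The poly(A) libraries were not made to measure such small RNAs. Rpl27a had 169 ± 13.6 and 135 ± 6.37 CPM (SD, n = 3 each), with -0.32 (SE 0.09) as the log2 fold change, without overlap. Neither gene was called in the edgeR fit above, but Rpl27a was called lower in 8 of 18 alternatives and Rpl13a in 4.

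The genes at the upper end were close to 0. In the small subunit these included Rps27l, Rps19 and Rps29, with log2 fold changes of 0.10, 0.07 and -0.01. Rps19 is, like Rps26, among the genes mutated in Diamond-Blackfan anaemia. Rps19 had 118, 127 and 108 CPM in IRE1fl and 143, 123 and 105 CPM in IRE1PKO, so that the groups overlapped throughout. In the large subunit they were Rpl31, Rpl23a, Rpl29, Rpl36a and Rpl11, with log2 fold changes of 0.03, 0.00, -0.01, -0.01 and -0.03. Rpl23a overlaps the annotated gene Tlcd1, which had a mean of 50.8 CPM and was called higher (log2 fold change 0.54, SE 0.12, edgeR adjusted p = 0.0207). Rpl31 overlaps Tbc1d8, with a mean of 21.1 CPM and a log2 fold change of 0.26 (SE 0.11). Rpl11, which can bind Mdm2 and so stabilise p53 when ribosome assembly fails, averaged 199 ± 8.47 CPM in IRE1fl against 195 ± 21.4 CPM in IRE1PKO (SD, n = 3 each).

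The stalk of the large subunit, formed by Rplp0, Rplp1 and Rplp2, recruits the factors that drive translation. Rplp0, often used as a reference gene in liver, had 354, 398 and 393 CPM in IRE1fl and 361, 329 and 305 CPM in IRE1PKO, a log2 fold change of -0.20 (SE 0.10). Rplp1 had 303 ± 23.5 and 251 ± 33.8 CPM (SD, n = 3 each), with -0.27 (SE 0.12) as the log2 fold change. Rplp2 had 111 ± 6.90 and 107 ± 21.2 CPM, a log2 fold change of -0.05 (SE 0.13). The groups overlapped for all 3 stalk genes.

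Several ribosomal proteins have a second copy that is restricted to certain tissues or responds to particular signals. Rpl10l and Rpl39l, known from testis, were at or near 0: Rpl10l had no count in any library, which allows up to 3 counts per library, and Rpl39l had 2 counts in IRE1PKO 2 and none elsewhere. Rpl3l, known from muscle, had 7 to 26 counts per library, while its main copy Rpl3 had 212 ± 17.4 and 204 ± 17.9 CPM (SD, n = 3 each). Rpl32l, a predicted copy, had 4 to 9 counts per library. Rpl10l, Rpl39l and Rpl32l were the 3 members that did not pass the filter. Rpl10 and Rpl39, the main copies, had log2 fold changes of -0.09 (SE 0.10) and -0.05 (SE 0.10).

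Other second copies were well expressed. Rps27l, which p53 can induce, had 128, 139 and 113 CPM in IRE1fl and 151, 132 and 125 CPM in IRE1PKO, the highest log2 fold change of all members (0.10, SE 0.11), with overlap. Its main copy Rps27 was lower in level, with 78.5 ± 5.31 and 63.1 ± 5.27 CPM (SD, n = 3 each), and both have a coding sequence of 252 bases. Rpl22l1 had 12.9, 16.5 and 24.6 CPM in IRE1fl and 13.1, 14.3 and 15.6 CPM in IRE1PKO, so that IRE1fl 3 alone stood above the others. Its main copy Rpl22 had 97.8, 98.8 and 107 CPM, then 102, 92.0 and 88.2 CPM. Rpl7l1, a relative of Rpl7, had 57.8 ± 2.52 and 50.6 ± 0.541 CPM without overlap, and Rpl7 had 236 ± 20.8 and 211 ± 7.42 CPM.

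Levels of different genes were compared per kilobase of coding sequence, with lengths from GENCODE M21 for 80 of the 81 members with a mean of at least 1 CPM (Rps4l has no coding transcript there). The proteins of a ribosome are needed in equal numbers, apart from the doubled stalk proteins Rplp1 and Rplp2. Most mRNA levels lay close together: 70 of the 80 were between 150 and 500 CPM per coding kilobase, with a median of 288. The highest were Rpl41 at 3266 ± 421, Rplp1 at 810.1 ± 112 and Rps2 at 589 ± 36.8 (SD over the 6 libraries). The lowest were Rpl22l1 at 44.2 ± 11.97, Rpl7l1 at 73.4 ± 5.79 and Rpl21 at 90.4 ± 8.93.

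Rpl41 encodes a very short peptide from a coding sequence of 75 bases, and most of its transcript of 437 bases is not coding. Per kilobase of transcript Rpl41, Rplp1 and Rps2 were again the highest, at 560.5, 555 and 519 CPM, and Rpl41 and Rplp1 then differed by less than their spread. Rpl22l1 was again the lowest, at 29.3 CPM per kilobase of transcript. The order of the levels was alike in the 2 genotypes (Spearman's rho 0.972 over the 80 genes, a description of genes measured in the same libraries). Many processed pseudogenes share sequence with these genes, so reads may be missing from some members. The 12 symbols of the form member-ps in the table held 0.289% to 0.368% as many counts as the members, and adding them to their parents left the median at -0.14.

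**Figure D3:**
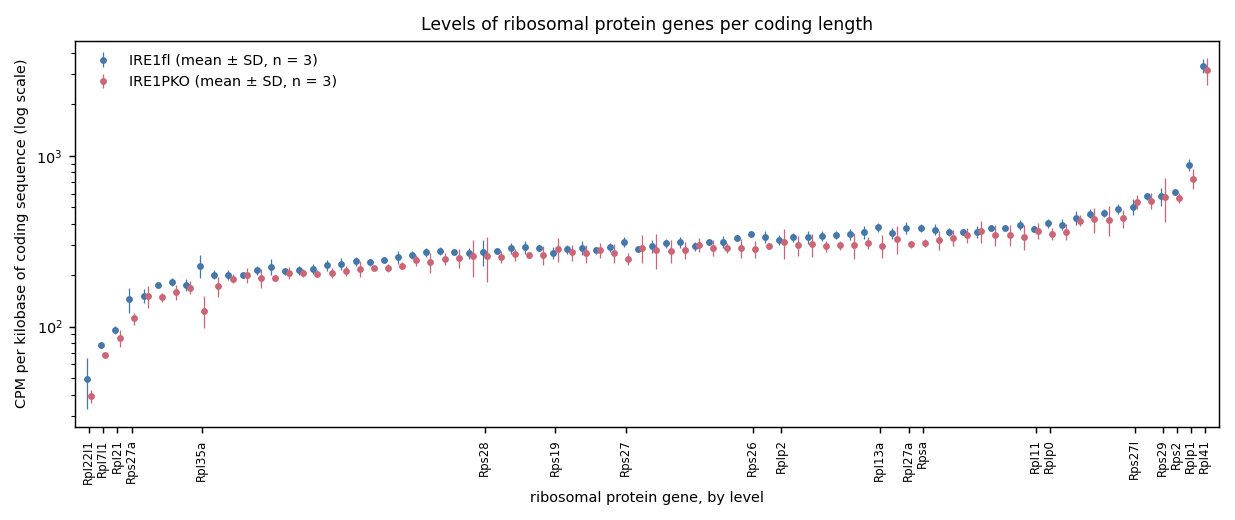
CPM per kilobase of coding sequence (log axis) of 80 ribosomal protein genes, ordered by level, as mean and SD of the 3 libraries of each genotype, with a selection of genes named. Most genes lie between 150 and 500, Rpl41 stands far above and Rpl22l1, Rpl7l1 and Rpl21 lie lowest in both groups.

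Within each group the members moved together from library to library. On the log2(CPM + 1) scale, the median deviation of 80 members from their group mean was -0.07 in IRE1fl 1, 0.07 in IRE1fl 2 and 0.00 in IRE1fl 3. In the IRE1PKO libraries it was 0.12, 0.05 and -0.17. Of the 80 members, 79 were above the group mean in IRE1PKO 1 and 78 were below it in IRE1PKO 3. IRE1PKO 3 held the lowest value of all 6 libraries for 77 of the 82 tested members. In 5569 other genes with a mean of at least 20 CPM and a known length, the medians in IRE1PKO 1 and 3 were 0.01 and -0.01.

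**Figure D4:**
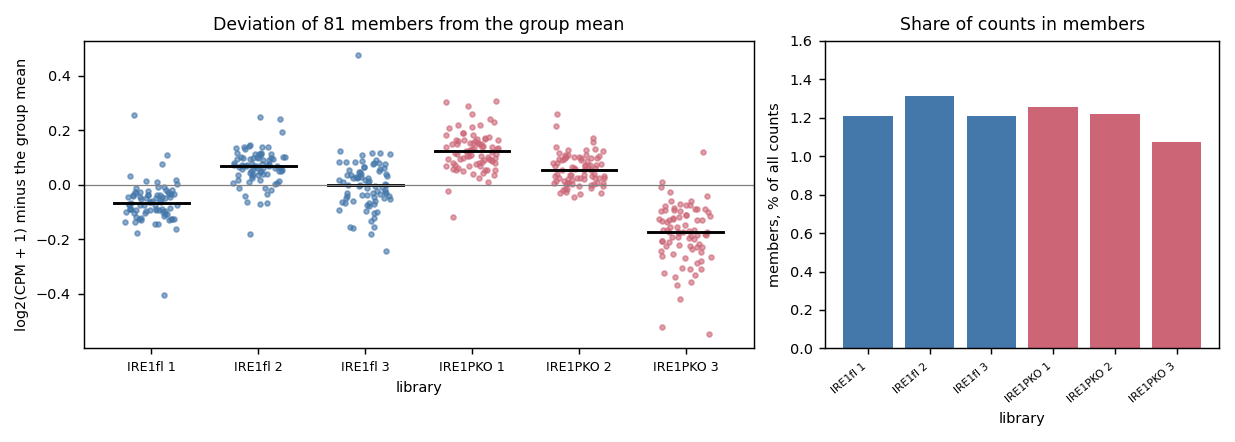
Left, log2(CPM + 1) minus the group mean for 81 ribosomal protein genes in each library (points), with the median as a black line. Right, the share of all counts that fell on members; IRE1PKO 3 lies lowest in both plots, at 1.07% of counts.

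These deviations went with transcript length. Member transcripts are short, with a median of 729 bases against 2770.5 bases over 12874 tested genes with a length. In IRE1PKO 1 the deviation was larger for shorter transcripts (Spearman's rho -0.475 over 80 members), and in IRE1PKO 3 it was more negative for them (rho 0.472). The 30 members of up to 600 bases had medians of 0.15 and -0.23 in these libraries, and the 50 longer ones 0.10 and -0.14. The 80 other genes of at least 20 CPM and up to 600 bases also had medians of 0.13 and -0.17. Longer other genes had medians of 0.01 and -0.01. Length and these shifts are thus measured together, and the part of length in the member values was not tested.

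Rps28 and Rps29, picked after their values were seen, had the widest spread within groups of all members with a mean of at least 1 CPM. Rps28, with a transcript of 271 bases, had 56.0, 67.0 and 47.5 CPM in IRE1fl and 63.5, 62.3 and 35.1 CPM in IRE1PKO. Rps29 had 94.2, 111 and 86.8 CPM in IRE1fl and 116, 109 and 64.9 CPM in IRE1PKO. In both genes IRE1PKO 3 was the lowest library and IRE1fl 3 the lowest of its group. Their log2 fold changes had SEs of 0.26 and 0.22, against a median SE of 0.10 over the tested members and 0.15 over all tested genes. With offsets for the length trend of each library, an alternative added after the data were seen, the median of the members was -0.11, 71 of 82 were below 0, and Rpl35a and Rps4l were again the 2 called.

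**Figure D5:**
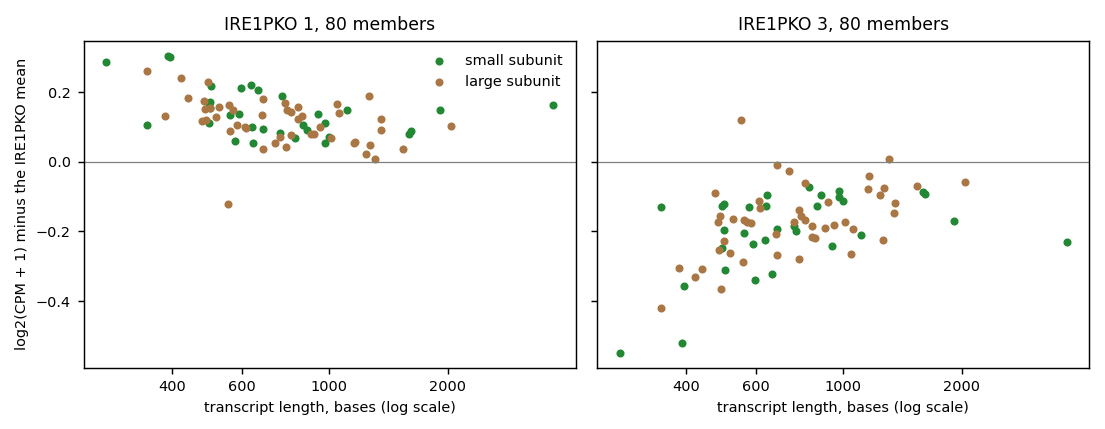
Log2(CPM + 1) minus the IRE1PKO mean (vertical axis) against transcript length (log axis) for 80 ribosomal protein genes in IRE1PKO 1 and IRE1PKO 3, coloured by subunit. Nearly all genes lie above 0 in IRE1PKO 1 and below 0 in IRE1PKO 3, and shorter transcripts tend to lie farther from 0, with exceptions.

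Ribosomal proteins that the symbol rule misses had similar values. Rack1, a scaffold on the small subunit, had 242 ± 17.98 and 220.4 ± 14.9 CPM in IRE1fl and IRE1PKO (SD, n = 3 each), with -0.13 (SE 0.10) as the log2 fold change. Fau, made as a fusion with a relative of ubiquitin, had a log2 fold change of -0.17 (SE 0.13). Rpl36al and Rps27rt, copies of Rpl36a and Rps27, had values of -0.13 (SE 0.11) and -0.35 (SE 0.18). None of these 4 was called in any setting that was run.

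Of 18 other mRNAs known for a TOP start, such as those of elongation factors, edgeR called none, and 16 were below 0, with a median of -0.13. An unadjusted p under 0.05 was found for 2 higher and 3 lower genes, beside 25.02% of all tested genes in either direction. DESeq2 and limma-voom each called 1 higher, as did the fit with library totals and the one without IRE1fl 1, and 2 were called higher at a threshold of 0.1. The 2 genes above 0, named after their values were seen, were Vim, an intermediate filament gene that mesenchymal cells express, and Nap1l1, a histone chaperone gene, with log2 fold changes of 0.63 (SE 0.19, edgeR adjusted p = 0.0724) and 0.29 (SE 0.09, edgeR adjusted p = 0.0771). The remaining translation lists were set with earlier results of these data known. Of 29 initiation factors 1 was lower, Eif2b5, and the median was -0.07. Of 14 elongation and release factors 1 was lower, Hbs1l, a ribosome rescue factor, with a median of -0.16. Of 39 tested ribosome assembly factors 1 was lower, Nle1, a factor of large subunit maturation, with 32 of 39 below 0 and a median of -0.12.

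RNA polymerase I makes the precursor of most ribosomal RNA. Of 13 genes of its transcription edgeR called none, 12 were below 0 and the median was -0.14. An unadjusted p under 0.05 was found for 3 of them, all below 0, beside 25.02% of all tested genes in either direction. DESeq2 called 1 lower, as did edgeR at a threshold of 0.1 and with length offsets, and limma-voom called 0. Their levels summed to 240.0 to 249 CPM in IRE1fl and 210.0 to 216 CPM in IRE1PKO, without overlap. Ubtf was the largest of them, with means of 78.0 and 63.5 CPM. Taken singly, 31.0% of all tested genes did not overlap between the groups. Of 76 mitochondrial ribosomal protein genes, which serve the separate ribosome of mitochondria, 63 were below 0, and the median was -0.12. Over all tested genes 3.86% were called lower and 5.68% higher. Of the 76 genes 3 (3.95%) were lower and none higher. Those 3 were Mrps35, Mrps31 and Mrpl47, with log2 fold changes of -0.39, -0.33 and -0.51. With each library left out, 0 to 2 of this list were lower; with library totals 1 was, and at a threshold of 0.1 there were 6. Whether the members' median differs from those of these lists was not tested.

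Of 22 tested genes of mTORC1 and TOP mRNA control, 2 were called higher and none lower, with 8 of 22 below 0 and a median of 0.09. Larp1, also named after its value was seen, had 149.8 ± 2.93 and 132 ± 4.84 CPM in IRE1fl and IRE1PKO, a log2 fold change of -0.18 (SE 0.08), and was not called. Mtor, the kinase itself, rose from 66.0 ± 2.44 to 107 ± 12.5 CPM (SD, n = 3 each), for which the log2 fold change was 0.70 (SE 0.10, edgeR adjusted p = 0.00173), and was called in every alternative. Rragc, a GTPase that brings mTORC1 to the lysosome, rose by a log2 value of 0.40 (SE 0.09). On leaving out IRE1fl 2, IRE1PKO 1 or IRE1PKO 2 it was no longer called (edgeR adjusted p up to 0.0786). Neither value speaks of the activity of the kinase.

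Of 8 transcription factors named for ribosomal protein promoters, Myc alone was called, 4 of 8 were below 0 and the median was -0.00. Myc rose from 1.67 ± 0.420 to 3.83 ± 0.307 CPM (SD, n = 3 each), for which the log2 fold change was 1.19 (SE 0.24, edgeR adjusted p = 0.0120), and on leaving out IRE1PKO 1 it missed the threshold, at an edgeR adjusted p of 0.0610. Of 7 tested genes of ribosome rescue and quality control, 1 was called lower and none higher, with 5 above 0 and a median of 0.08. The gene called, Ltn1, encodes the ubiquitin ligase that marks chains stuck on large subunits and had 38.9 ± 0.974 and 27.5 ± 2.795 CPM. Its log2 fold change was -0.50 (SE 0.10, edgeR adjusted p = 0.00845), and it was called in every alternative. Over the 225 tested genes of all these lists that are no members, 3 were called higher and 7 lower. Over all 14954 tested genes the shares were 5.68% higher and 3.86% lower.

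Markers of other cell types differed between the genotypes in these livers. Of 8 stellate cell and fibroblast markers 7 were higher in IRE1PKO. The levels of all 8 summed to 217 to 254 CPM in IRE1fl and 416 to 447 CPM in IRE1PKO. The remaining marker, Acta2, was below 0 and not called, with means of 3.85 and 3.03 CPM (log2 fold change -0.34, SE 0.44). Of 5 markers of cycling cells 3 were higher (sums of 8.87 to 9.72 and 17.7 to 26.3 CPM), of 5 sinusoidal endothelial markers 2 (140.1 to 157 and 164 to 218 CPM) and of 8 macrophage markers 1 (243 to 316 and 295 to 396 CPM). Of 5 T and NK cell markers 1 was lower, Cd4 (sums of 4.82 to 5.22 and 2.002 to 2.55 CPM). Of 4 B and plasma cell markers 1 was lower, Jchain (7.06 to 10.9 and 3.88 to 5.74 CPM). In IRE1fl Cd4 and Jchain were the largest of their lists, with means of 2.55 and 6.34 CPM. In IRE1PKO they had 0.596 and 2.27 CPM. No other marker of either list was called, with 5 of 5 and 3 of 4 below 0. One hepatocyte marker of 6 was lower, Cps1. Of 4 cholangiocyte markers 1 was lower, Sox9, and 3 were below 0. The Sox9 means of 12.2 and 5.02 CPM made up most of the sums (13.3 to 15.9 and 5.89 to 8.93 CPM). Of 5 erythroid markers 1 was lower, Alas2, but 4 were above 0, with a list median of 0.77. Erythroid sums overlapped, at 344 to 508 CPM in IRE1fl and 310 to 946 CPM in IRE1PKO. None of 3 tested neutrophil markers was called. No marker was at 0 in all libraries, and the part of cell composition in the member values was not tested.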

How the data were processed

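Poly(A) RNA from liver was sequenced in 6 libraries. The table the authors deposited holds raw counts by gene symbol. Per the submitters' processing notes, the genome build named is mm10. Aligner, counter and gene models: not given in the sources used here. Whether both mates of a pair were counted is not stated, so halved counts were an alternative. No library was a copy of another (chi-square of 30.9 or more per gene in every pair).

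Of 35976 genes, 14954 passed edgeR's filterByExpr. Counts were TMM-scaled and tested in edgeR 4.0.16 (R 4.3.3), quasi-likelihood, robust, two-sided, Benjamini-Hochberg, threshold 0.05. The steps were tested on simulated data. With 3 libraries against 3, an exact permutation p cannot fall below 0.1. Lengths come from GENCODE M21, positions and starts from RefSeq GRCm38.p6.

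Members and lists were chosen with earlier results of these data known. Named were the 5 highest and lowest fold changes per subunit, second copies, stalk genes and Rpsa, the 3 highest and lowest levels, up to 3 called genes per other list, Ern1 and ribosomal proteins outside the rule; a few genes this rule names are not reported here. Alternatives were other scalings, filters, tests (DESeq2 1.42.0, limma-voom 3.58.1), a threshold of 0.1, the replicate block, added pseudogene counts and each library left out.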

Additional observations from a re-analysis of the deposited data

How the results depend on the processing

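Rpl35a and Rps4l were called lower under every alternative, and no member was called higher under any. More members were called lower without a filter on low counts (6), with the DESeq2 Wald test (7) and at a threshold of 0.1 (8); with each library left out the number ran from 2 to 3. Those added came from Rpl13a, Rpl27a, Rps27, Rps27a, Rpsa and Rps26. Rpl27a alone was added with DESeq2 size factors, with a filter at a mean of 1 CPM, with halved counts and without IRE1fl 1. The median of the members kept its sign in each setting. It also moved by less than the spread between libraries (0.12), but for the settings that leave out a library this is no test. The spread was computed from the same library deviations, and leaving out a library shifts the median by only part of its own deviation. Without IRE1PKO 3 the median of the members went from -0.14 to -0.06. With each library left out it ran from -0.20 to -0.06, that of the small subunit from -0.23 to -0.08 and that of the large subunit from -0.19 to -0.04. Whether the replicate numbers pair the libraries is not settled. The deviations of same-numbered libraries correlated with r of 0.135, -0.016 and 0.214. Those of libraries with unlike numbers had r from -0.223 to 0.0791. With the replicate number as a block, 5 members were called lower, and 6 genes of the other translation lists higher.

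Of those other lists together, 3 genes were called higher. This was 5 with library totals as the only scaling, 5 with the DESeq2 Wald test and 6 at a threshold of 0.1, and 1 to 5 with each library left out (1 without IRE1PKO 1). The 7 called lower became 4 with library totals and 13 at a threshold of 0.1, and 1 to 5 with each library left out. Eif2b5 lost its call without any single library, Nle1 without each but IRE1fl 1, and Hbs1l without IRE1fl 3 or IRE1PKO 1. Mrps35, Mrps31 and Mrpl47 each lost theirs without at least 4 of the libraries in turn. The causes were not tested. Members with few counts, such as Rpl3l, have fold changes too uncertain to read.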
